A study of Mus musculus with 6 samples.

Results

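The 7 MHC class II genes described here are Cd74, H2-Aa, H2-Ab1, H2-Eb1, H2-DMa, H2-DMb1 and Ciita. They were chosen by name, with earlier results of these data known, among 14994 genes tested on 35554 probesets. A probeset is the group of array probes that reports on 1 transcript. Of the 7 genes, 6 had a probeset annotated with that gene alone, and all 6 passed the filter on dim probesets. H2-DMb1 shared its probeset with H2-DMb2, so its value stands for either gene or both.

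The arrays (MoGene 1.0 ST) measured RNA of KSL SLAM cells, a sorted fraction of mouse bone marrow rich in haematopoietic stem cells. The gate kept cells with c-Kit, Sca-1 and CD150 on their surface and left out those with lineage markers, CD48 or CD41. In the G-CSF group, mice had received granulocyte colony-stimulating factor at 125 mcg/kg subcutaneously, 2 times per day for 7 days, and in the control group they had received PBS for 7 days. Each group had 3 arrays, and the RNA on an array came from 5 to 10 pooled mice, with separate pools for the 3 arrays. The labels give no strain, age or genetic change.

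MHC class II molecules are pairs of an alpha and a beta chain that show peptides from the endosome to CD4 T cells. The invariant chain (Cd74) holds the groove closed during assembly, and the H2-DM pair exchanges its last fragment for a peptide. The genes are switched on by the coactivator CIITA, which binds to the RFX complex, CREB and NF-Y on the promoters. Dendritic cells, B cells and macrophages are the cells best known for class II proteins.

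The promoters show what these genes share at the sequence level. RefSeq promoter sequences (GRCm38.p6, 250 bases before to 50 after the start site) were at hand for 4 of the 7 genes, H2-Aa, H2-Eb1, H2-DMa and H2-DMb1, and for H2-DMb2, H2-Ob, H2-Oa and H2-Eb2. The letters TGATTGG, the core of the Y box that NF-Y is known to bind, were searched on both strands. They were found on the gene's own strand in 7 of these 8 genes, while 7.82% of all 32851 promoter windows held them on either strand and 4.01% on the gene's strand. In the H2-DMa windows the letters were absent. The search also took ATGATGC, chosen after the sequences were seen, which was found in 4 of the 8 genes against 2.46% of all windows. Stretches from 120 to 21 bases before the start site are shown for 5 genes, because 4 of them hold both motifs and H2-Aa holds the Y box letters alone. Capitals mark the motifs, whose matches do not overlap.
H2-Eb1: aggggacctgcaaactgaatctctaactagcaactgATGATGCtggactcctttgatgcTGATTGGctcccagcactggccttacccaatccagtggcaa
H2-DMb1: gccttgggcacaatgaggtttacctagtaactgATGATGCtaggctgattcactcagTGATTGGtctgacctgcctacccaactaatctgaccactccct
H2-DMb2: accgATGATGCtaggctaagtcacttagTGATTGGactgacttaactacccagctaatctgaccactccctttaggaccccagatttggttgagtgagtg
H2-Ob: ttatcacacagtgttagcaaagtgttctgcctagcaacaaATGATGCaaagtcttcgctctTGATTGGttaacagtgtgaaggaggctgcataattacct
H2-Aa: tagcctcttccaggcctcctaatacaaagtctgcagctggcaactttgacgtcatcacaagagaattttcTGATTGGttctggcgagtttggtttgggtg

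These stretches lie at chr17:34305747-34305846 (plus strand) for H2-Eb1, chr17:34153071-34153170 (plus) for H2-DMb1, chr17:34145129-34145228 (plus) for H2-DMb2, chr17:34238785-34238884 (plus) for H2-Ob and chr17:34287844-34287943 (minus) for H2-Aa. From the first base of ATGATGC to the first base of TGATTGG the distance was 23 bases in H2-Eb1, 24 in H2-DMb1, 24 in H2-DMb2 and 21 in H2-Ob. Both motifs on the gene's strand occurred in 22 of the 32851 windows (0.067%), and these 4 genes are among the 22. Since ATGATGC was chosen after these sequences were seen, that share is a description and no independent support. H2-Aa held the Y box letters 50 bases before its start site and no ATGATGC. Other letters were not searched, so this does not show that H2-Aa lacks an upstream element. A match is a description of the letters and no measure of binding in these cells.

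None of the class II genes passed the test between G-CSF and PBS. By limma with Benjamini-Hochberg adjustment over all genes tested, 0 of the 6 genes with a probeset of their own were called, where 0.0267% of all genes were called. At an unadjusted p under 0.05 the count was also 0 of 6, against 6.04% of all genes, and in 0 of the 6 did the groups lie apart without overlap, against 10.8% of all genes (5.77% with G-CSF higher and 5.05% with G-CSF lower). The differences (G-CSF minus PBS, log2) ran from -0.51 to 0.03 with a median of -0.11, beside a median of 0.002 over all genes. Of the 6 differences, 5 were negative, beside 7442 of 14994 over all genes. With 1 array left out, the sign turned in Cd74, H2-Aa, H2-Ab1 and Ciita among those 5. Without G-CSF replicate 3 the median difference of MHC class II members was 0.044. In bulk samples such as these, fewer cells of a type and less RNA per cell cannot be told apart.

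**Figure D1:**
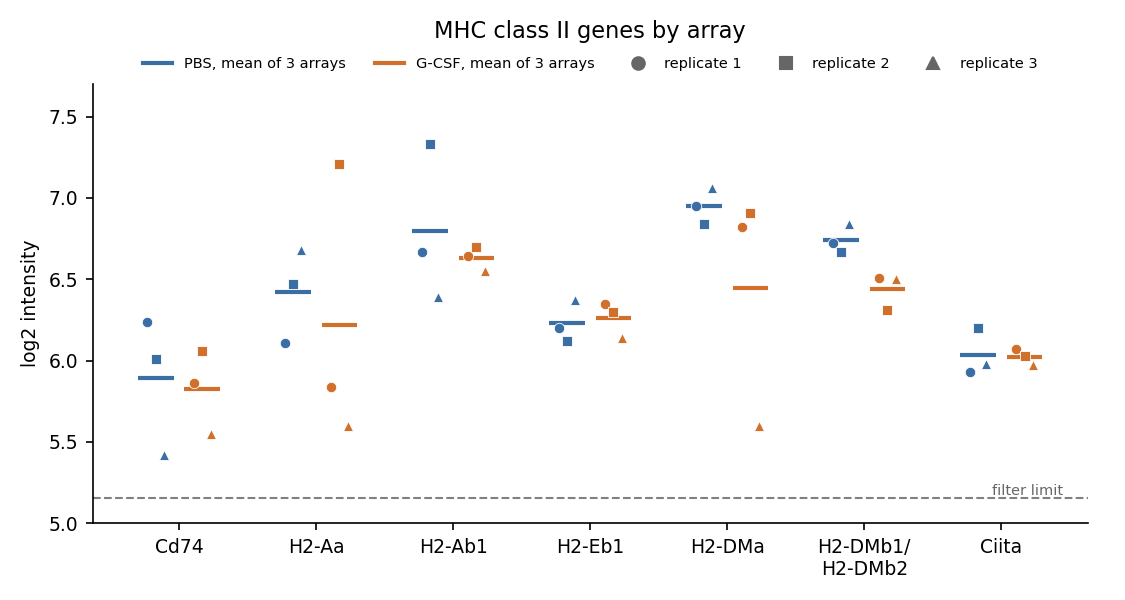
Log2 intensity of each MHC class II gene on every array (points, shaped by replicate number), with the mean of the 3 arrays per group as a bar and the filter limit of 5.152 as a dashed line. The groups overlap in all genes except the probeset shared by H2-DMb1 and H2-DMb2, and the lone low point of H2-DMa (5.60) and the lone high point of H2-Aa (7.21) are both G-CSF arrays.

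Levels with PBS were above the filter limit on every array. That limit, a log2 intensity of 5.152, is the 25th percentile of probesets with 1 gene symbol and no measured background. Probes differ in how strongly they bind, so levels of different genes are not ranked here. The distance of a gene's PBS mean from the limit ran from 0.74 log2 units for Cd74 to 1.80 for H2-DMa. The 50th percentile of the same probesets was 6.005. The PBS mean of Cd74 (5.89) lay under it and that of Ciita (6.04) just above it. The filter was also passed by 6 of 13 B cell markers with a probeset and by 5 of 10 T, NK and innate lymphoid markers. The levels describe signal on the array and do not settle which cells it came from or whether class II protein is made.

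Cd74 encodes the invariant chain, the chaperone of all class II pairs. Its probeset (10456005) read 6.24, 6.01 and 5.42 (log2 intensity) on PBS arrays 1 to 3 and 5.86, 6.06 and 5.55 on G-CSF arrays 1 to 3. Both groups span nearly the same levels, and replicate 3 is the lowest array in each. The means were 5.89 ± 0.42 with PBS and 5.83 ± 0.26 with G-CSF (SD, n = 3 each), a difference of -0.06 (SE 0.25, limma adjusted p = 0.999). The 95% interval of that difference, -0.65 to 0.53, spans from 1.57-fold lower to 1.44-fold higher.

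H2-Aa encodes the alpha chain of the I-A molecule. Its probeset (10450154) read 6.11, 6.47 and 6.68 on the PBS arrays and 5.84, 7.21 and 5.60 on the G-CSF arrays. G-CSF array 2 was the highest of all 6 arrays, and the other G-CSF arrays were the lowest of all. This left a 3.05-fold range within the G-CSF group, against 1.48-fold within the PBS group. The means were 6.42 ± 0.29 and 6.22 ± 0.87 (SD, n = 3 each), with a difference of -0.20 (SE 0.42, limma adjusted p = 0.981, 95% interval -1.18 to 0.77). Without G-CSF replicate 2 the difference was -0.70 (adjusted p = 0.679), and without G-CSF replicate 3 it was 0.11. The residual SD of H2-Aa, its spread within groups, was 0.65, larger than in 93.8% of all genes tested.

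H2-Ab1 encodes the beta chain that pairs with H2-Aa. Its probeset (10444291) read 6.67, 7.33 and 6.39 on the PBS arrays and 6.64, 6.70 and 6.55 on the G-CSF arrays. Here the spread lay in the PBS group (SD 0.49), with PBS array 2 highest, while the G-CSF arrays were close together (SD 0.08). The array with the highest H2-Aa value within each group was thus PBS 3 and G-CSF 2, and for H2-Ab1 PBS 2 and G-CSF 2. The difference of means was -0.17 (SE 0.25, limma adjusted p = 0.966, 95% interval -0.75 to 0.42), and without PBS replicate 2 it was 0.10.

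H2-Eb1 encodes the beta chain of the I-E molecule. Its probeset (10444298) read 6.20, 6.12 and 6.37 on the PBS arrays and 6.35, 6.30 and 6.14 on the G-CSF arrays. All 6 arrays lay within 0.25 log2 units, a 1.19-fold range. The difference was 0.03 (SE 0.15, limma adjusted p = 0.999), and its interval, -0.33 to 0.39, reached 1.25-fold lower and 1.31-fold higher.

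H2-DMa encodes the alpha chain of the peptide exchange factor. Its probeset (10444229) read 6.95, 6.84 and 7.06 on the PBS arrays and 6.82, 6.91 and 5.60 on the G-CSF arrays. G-CSF arrays 1 and 2 lay at the PBS level or just below it, and array 3 lay far under all the others. The means were 6.95 ± 0.11 and 6.44 ± 0.73 (SD, n = 3 each), the difference of largest size among the 7 genes at -0.51 (SE 0.35, limma adjusted p = 0.941, 95% interval -1.32 to 0.31). Without G-CSF replicate 3 it was -0.08.

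The beta chain of that factor is encoded by H2-DMb1 and by its close paralog H2-DMb2, and 1 probeset (10444236) is annotated with both. It read 6.72, 6.67 and 6.84 on the PBS arrays and 6.51, 6.31 and 6.50 on the G-CSF arrays. The highest G-CSF array was below the lowest PBS array, as in 4.24% of all 35554 probesets, while 9.34% had no overlap in either direction. The means were 6.75 ± 0.09 and 6.44 ± 0.11 (SD, n = 3 each), a difference of -0.30 (SE 0.15, 95% interval -0.67 to 0.06). In the fit of all probesets the unadjusted p was 0.0891, so the difference did not pass before adjustment either (limma adjusted p = 1.0). Leaving out 1 array gave -0.34 to -0.24. The low G-CSF array differed within the pair, since for H2-DMa it was replicate 3 and for the shared beta chain probeset it was replicate 2.

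Ciita encodes the class II transactivator. Its probeset (10433507) read 5.93, 6.20 and 5.98 on the PBS arrays and 6.07, 6.03 and 5.97 on the G-CSF arrays. The groups overlapped, with all arrays within a 1.20-fold range. The difference was -0.01 (SE 0.15, limma adjusted p = 0.999, 95% interval -0.37 to 0.34), so the interval reached no further than 1.29-fold lower or 1.27-fold higher. Ciita and H2-Eb1 were the steadiest of the 6 genes, with residual SDs above those of only 7.5% and 10.1% of all genes tested. H2-Aa, H2-DMa, Cd74 and H2-Ab1 lay above the median residual SD of 0.256.

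Within the G-CSF group, replicate 3 was the lowest array in all 6 genes with a probeset of their own. Over all genes tested it was the lowest G-CSF array in 29.7%. G-CSF replicate 2 was the highest in 4 of the 6 and replicate 1 in the other two, while among the PBS arrays each was the lowest for 2 genes. This order was noticed in the data and was not tested. Other class II chains did not share it. On G-CSF arrays 1 to 3, H2-Ob read 5.99, 6.28 and 6.70 and H2-Eb2 read 5.30, 5.19 and 5.40, both highest on array 3. H2-Oa read 6.10, 5.93 and 6.05, lowest on array 2. The plot of differences with 1 array left out shows where single arrays set a gene's value.

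**Figure D2:**
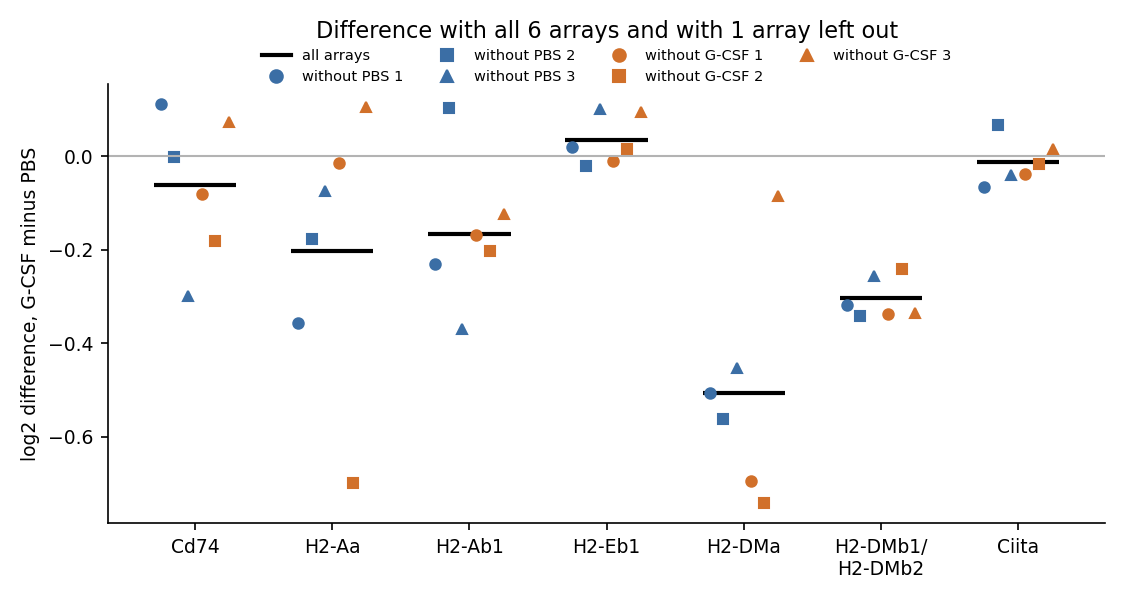
Log2 difference (G-CSF minus PBS) of each gene with all 6 arrays (black bar) and with each array left out (points, coloured by the group and shaped by the replicate left out). Without G-CSF replicate 3 the difference of H2-DMa moves from -0.51 to -0.08, and without G-CSF replicate 2 that of H2-Aa moves from -0.20 to -0.70.

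The remaining class II chains and the proteins that prepare peptides were described from a list of 14 genes. Of these, 10 were tested, and 0 passed by limma in either direction (smallest adjusted p = 0.702). At an unadjusted p under 0.05, 3 were higher and 0 lower, against 2.73% of all genes higher and 3.3% lower. H2-Oa and H2-Ob, the chains of the factor that restrains H2-DM, differed by -0.30 (SE 0.19, adjusted p = 0.936) and 0.00 (SE 0.27), the latter turning to -0.015 with arrays centred on the median (H2-Ob, G-CSF minus PBS). The beta chain gene H2-Eb2 differed by 0.07 (SE 0.18). H2-Ea, which RefSeq lists as a transcribed pseudogene, lay under the filter limit on all 6 arrays, between 4.73 and 5.03.

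The 3 genes at an unadjusted p under 0.05 belong to the endosome and lysosome. Ifi30, a thiol reductase that opens disulphide bonds of antigens, read 6.23, 5.91 and 6.23 with PBS and 6.46, 7.06 and 7.86 with G-CSF. The groups did not overlap, and the difference was 1.00 (SE 0.34, 95% interval 0.20 to 1.80, limma unadjusted p = 0.0209, adjusted p = 0.702). G-CSF array 3, the lowest of its group in the 6 class II genes with a probeset of their own, was the highest for Ifi30. Ctsd (cathepsin D) differed by 0.90 (SE 0.32, adjusted p = 0.749) without overlap. Ctss (cathepsin S), which trims the invariant chain, differed by 0.47 (SE 0.20, adjusted p = 0.816), with overlap. Lgmn, an asparaginyl endopeptidase, had a mean under the limit and differed by 0.19 (SE 0.21) in the fit without a filter. The cathepsins among these genes also serve phagocytes in other ways. The mean of the neutrophil marker list was higher on every G-CSF array (9.69 to 10.3) than on any PBS array (7.85 to 8.77). The part of neutrophils in the differences of Ifi30, Ctsd and Ctss was not tested.

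**Figure D3:**
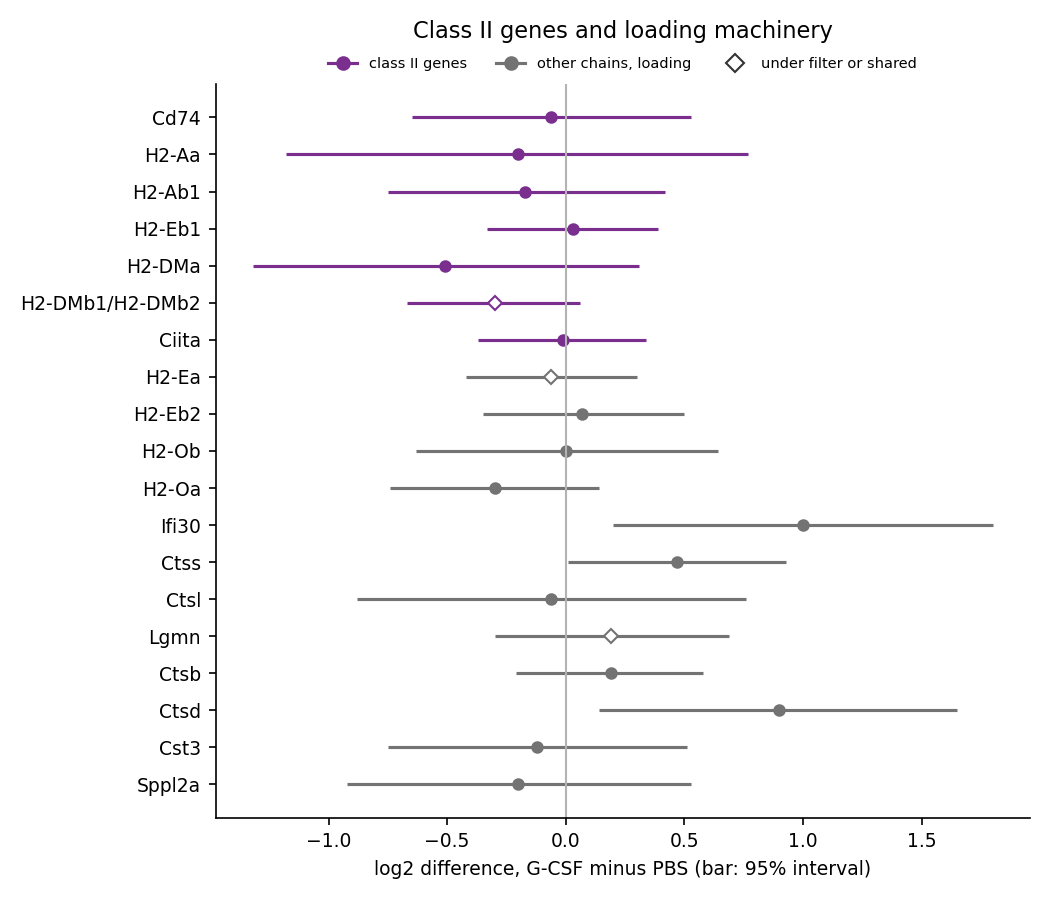
Log2 difference (G-CSF minus PBS) with limma's 95% interval for the MHC class II genes (purple) and for the other chains and loading genes (grey). Open diamonds mark genes under the filter and the shared probeset. The intervals of all class II genes include 0, and those of Ifi30, Ctss and Ctsd lie above it before adjustment for multiple tests.

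The factors on class II promoters are the RFX complex, NF-Y, CREB and the coactivators that CIITA recruits. All 16 listed genes were tested, and 0 passed by limma, with 0 at an unadjusted p under 0.05 in either direction. The median difference was -0.10. The RFX subunits Rfx5, Rfxank and Rfxap differed by -0.15 (SE 0.16), 0.23 (SE 0.17) and -0.26 (SE 0.21). The NF-Y subunits Nfya, Nfyb and Nfyc, which bind the Y box printed above, differed by 0.09 (SE 0.30), -0.09 (SE 0.38) and -0.28 (SE 0.34). Nfyb changed sign, to 0.06, when arrays were weighted. The acetyltransferase gene Crebbp was lower on every G-CSF array, by 0.25 in the mean (SE 0.15, adjusted p = 0.932), the chromatin remodeller Smarca4 differed by -0.23 (SE 0.17), and the elongation kinase Cdk9 differed by 0.61 (SE 0.44).

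Interferon gamma is the best known inducer of Ciita outside professional antigen-presenting cells. Of the 9 genes listed for this input, 7 were tested, 0 passed by limma, and 0 reached an unadjusted p under 0.05. Ifngr1 and Ifngr2, the receptor chains, differed by 0.67 (SE 0.37, adjusted p = 0.927) and -0.44 (SE 0.30, adjusted p = 0.941). Irf1 and Irf2, which bind the Ciita promoter, differed by -0.27 (SE 0.20) and -0.34 (SE 0.25). Usf1 lay under the filter limit on all arrays.

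Among the other regulators of Ciita, 8 of 10 genes were tested and 0 passed by limma. Spi1 (PU.1), a myeloid and B cell transcription factor, was the 1 gene at an unadjusted p under 0.05, where 2.73% of all genes were higher at that threshold. It read 6.36, 6.53 and 6.91 with PBS and 7.06, 8.32 and 7.26 with G-CSF, a difference of 0.95 (SE 0.34, limma unadjusted p = 0.0266, adjusted p = 0.749). The groups did not overlap for Spi1, as in 5.77% of all genes on the higher side, while Ciita differed by -0.01. Flt3 (0.35, SE 0.22), Bach2 (0.19, SE 0.18) and the dendritic cell factor Zbtb46 (0.15, SE 0.18) did not pass.

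Genes for class II protein turnover and for co-stimulation of T cells did not pass either, with 8 of 11 tested, 0 called by limma and 0 at an unadjusted p under 0.05. The smallest p in that list belonged to Cd274 (PD-L1, 0.42, SE 0.22, adjusted p = 0.904). The co-stimulatory genes Cd40, Icosl and Cd86 differed by 0.27 (SE 0.16), 0.33 (SE 0.21) and -0.40 (SE 0.30).

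Markers of the cells best known for class II were set beside these values. The sort left out cells with lineage markers, which is meant to remove mature B cells, T cells, macrophages and neutrophils. For conventional dendritic cells the mean over 13 probesets lay at 5.75 to 5.79 with PBS and 5.84 to 6.01 with G-CSF. Their defining marker Itgax (CD11c) had a mean under the filter limit, and so did 4 further markers of that list. Itgax read 4.68, 5.10 and 5.10 with PBS and 5.29, 5.25 and 5.27 with G-CSF, so every G-CSF array was above the PBS arrays in this gene and in the list's mean. The difference of Itgax was 0.31 (SE 0.17, adjusted p = 0.987 in the limma fit without a filter). The other markers of that list with means under the limit differed by 0.49 (Clec10a), 0.09 (Xcr1), -0.06 (Itgae) and -0.20 (Clec9a). Its 8 tested genes held 6 positive and 2 negative differences with a median of 0.18. Of these, 0 lay without overlap on the higher side, against 5.77% of all genes. Naaa, Flt3, Ccr7 and Batf3, the tested genes of smallest p in the list, differed by 0.34, 0.35, 0.27 and 0.22, each with overlap. The plasmacytoid dendritic cell list (8 probesets) lay at 6.23 to 6.31 and 6.13 to 6.42. The B cell list (13 probesets) lay at 5.29 to 5.55 with PBS and 5.13 to 5.42 with G-CSF, and 7 of its genes, Cd79a and Ms4a1 among them, had means under the limit. Ms4a1 (CD20) was lower on every G-CSF array, with a difference of -0.36 (SE 0.19, adjusted p = 0.987), and Cd79a differed by 0.06 (SE 0.31). Of the tested B cell genes, Fcrla, Blk, Pax5 and Igll1 differed by 0.21, -0.18, -0.11 and -0.10, all with overlap. For macrophages and monocytes (12 probesets) the means were 5.91 to 6.18 and 6.22 to 6.40, with Adgre1 (F4/80) under the limit on all arrays. The list of T, NK and innate lymphoid markers (10 probesets) lay at 5.25 to 5.39 and 5.37 to 5.42. The part of these cell types in the class II values was not tested.

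**Figure D4:**
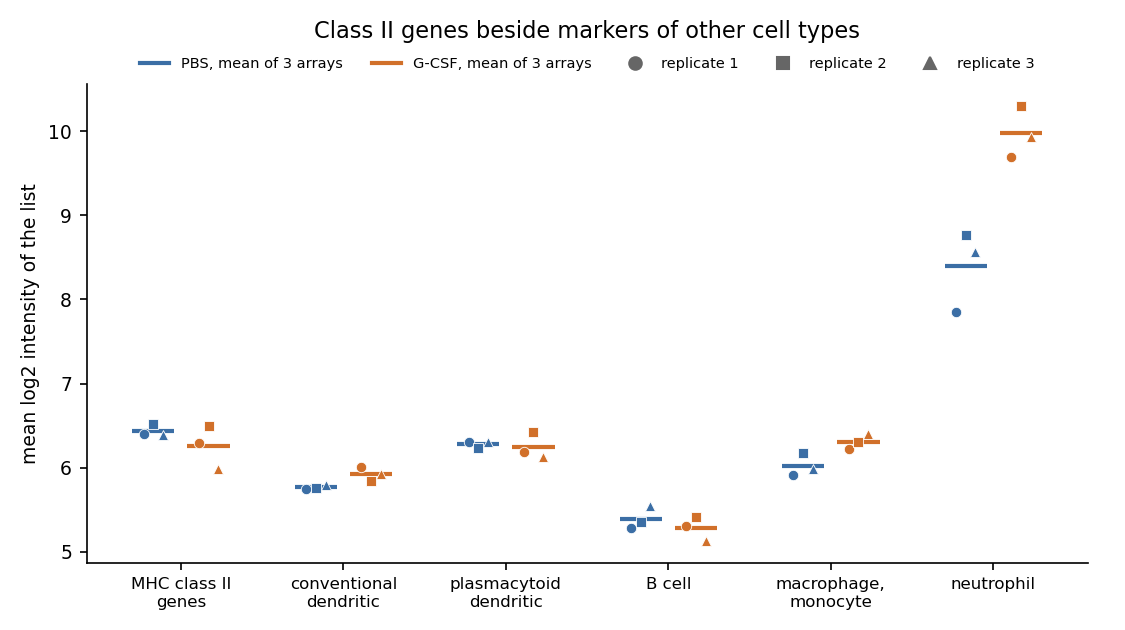
Mean log2 intensity per array of the MHC class II genes and of marker lists for other blood cell types (points by array, bars for the mean of 3 arrays per group). The neutrophil list lies at 7.85 to 8.77 with PBS and 9.69 to 10.3 with G-CSF, while the class II genes lie at 6.39 to 6.52 and 5.99 to 6.50.

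In these lists 0 genes passed by limma. Tcf4, a factor of plasmacytoid dendritic cells that is also expressed in stem cells, was lower on every G-CSF array (difference -0.75, SE 0.22, unadjusted p = 0.0106, adjusted p = 0.541), while Siglech, a surface receptor of the same cells, differed by 0.21 (SE 0.22). Csf1r, the receptor for macrophage colony-stimulating factor, differed by 0.31 (SE 0.15, adjusted p = 0.857). The monocyte and granulocyte genes Lyz2 (1.16, SE 0.31), Ccr2 (0.86, SE 0.27) and F13a1 (0.72, SE 0.21) lay higher on all G-CSF arrays and did not pass over all genes (adjusted p = 0.477, 0.639 and 0.554). Csf1r also lay higher on all G-CSF arrays, and with it these were the 4 genes of smallest p among the 10 tested in the macrophage and monocyte list. Without overlap on the higher side were thus 4 of 10, against 5.77% of all genes. The macrophage and monocyte list held 7 positive and 3 negative differences with a median of 0.20. The macrophage genes C1qc, Cd163 and C1qb differed by -0.20 (SE 0.20), -0.14 (SE 0.19) and -0.06 (SE 0.20), each with overlap. Among 14 neutrophil markers, 13 lay without overlap on the higher side, against 5.77% of all genes, and 0 passed over all genes. The exception was Ly6g, which differed by -0.19 (SE 0.48) with overlap. That list was chosen with earlier results of these data known. The class II genes had 0 of 6 without overlap on the higher side. Of the stem cell genes, Kit, which was used in the sort, differed by -0.98 (SE 0.23, adjusted p = 0.374), and Procr and Mecom by -0.50 (SE 0.28) and -0.38 (SE 0.25).

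The order of the arrays for H2-Aa can be set beside the B cell list, a comparison chosen after the values were seen. The mean of that list was 5.29, 5.35 and 5.55 with PBS and 5.31, 5.42 and 5.13 with G-CSF, the same order within each group as for H2-Aa. The order of this mean rests mainly on 1 gene, Vpreb1, whose range over the 6 arrays was 3.43 log2 units. Of its 6 tested genes, Vpreb1 and Igll1, which encode the surrogate light chain of early B lineage cells, had that order, and so did 322 of the other 14993 genes tested (2.15%). Vpreb1 read 5.81, 6.38 and 9.02 with PBS and 6.05, 8.81 and 5.59 with G-CSF. Igll1 read 6.12, 6.52 and 6.69 with PBS and 6.34, 6.49 and 6.21 with G-CSF, a far narrower range. The tested markers Cd79b, Pax5, Blk and Fcrla did not have the order of H2-Aa. Among the G-CSF arrays, Pax5 and Blk were highest on array 3, Fcrla on array 1 and Cd79b on array 2. Cd79a, a B cell receptor component, was under the filter limit on all 6 arrays. The part of B lineage cells in the spread of H2-Aa was not tested.

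The genes most like the class II genes over the arrays were sought with Pearson's r over 6 arrays against the mean of Cd74, H2-Aa, H2-Ab1 and H2-Eb1. That mean was 6.30, 6.48 and 6.21 on the PBS arrays and 6.17, 6.57 and 5.96 on the G-CSF arrays. The search covered 2251 genes with an SD of at least 0.5 over the 6 arrays. The 6 with the highest r were Rsbn1 (0.978), Glb1 (0.976), Rnf125 (0.971), Stx16 (0.967), Trappc3 (0.966) and Serinc1 (0.956). Glb1 is lysosomal beta-galactosidase, Rnf125 a ubiquitin ligase, and Stx16 and Trappc3 act in vesicle transport. Of the 2251 genes, 22 had an r of at least 0.9. With 6 arrays and this many genes, such values describe a shared array order only. All 6 genes were highest on G-CSF array 2 and lowest on G-CSF array 3 over the 6 arrays, and their differences between groups ran from -0.43 for Serinc1 to -0.11 for Rnf125, with adjusted p of 0.966 to 0.999 by limma.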

How the data were processed

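Deposited were intensities for 35554 probesets on 6 arrays. RMA is named in the submitters' processing notes, while software, version and genome build were not stated there or in the labels. Since the deposited intensity values span 2.697 to 19069.34, a linear scale, log2 was taken. Array medians were 56.2 to 61.75 (intensity), and Spearman's rho between arrays over probesets with 1 symbol that passed the filter was 0.858 to 0.893 within and 0.832 to 0.895 between groups. The number of arrays limits the precision.

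Names came from the platform annotation (1 symbol for 21789 probesets, several for 1621) and RefSeq identifiers. The dimmest 25% of probesets with 1 symbol were removed, and each gene took its probeset of highest mean. Groups were compared with limma 3.58.1 (R 4.3.3, lmFit and eBayes, two-sided, Benjamini-Hochberg adjustment over 14994 genes, threshold 0.05). Genes under the filter took their value from a fit without it, and the shared probeset from a fit of all probesets. The fit was tested on simulated data. Named are the members, genes among up to 4 per list with the smallest p, and a fixed set of cofactors and markers. Vpreb1, Cd79b, C1qb, C1qc, Cd163, Ly6g, Usf1, Clec10a, Xcr1, Itgae and Clec9a are named outside that rule, with their values seen. The members and lists were chosen with earlier results of these data known. Alternatives were other filters, other normalizations, trended variance, weighted arrays, the mean of a gene's probesets, a replicate block and each array left out.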

Additional observations from a re-analysis of the deposited data

How the results depend on the processing

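In every alternative run, 0 MHC class II genes passed the threshold, and 0 genes were lower over all genes tested. Over all genes, 4 were higher, against 12 with quantile normalization again, 2 with arrays centred on the median, and 0 to 6 with 1 array left out. The median difference of MHC class II members was -0.114, ran from -0.191 to 0.044 with 1 array left out (0.044 without G-CSF replicate 3), and was -0.165 with the shared probeset counted for H2-DMb1, an alternative chosen after seeing the data. The fit with the replicate number as a block gave a median of -0.114, 0 class II genes and 5 genes past the threshold. The labels do not state that the replicate numbers pair the arrays. Deviations of same-numbered arrays correlated at 0.289, 0.019 and 0.193, and those of arrays with different numbers at -0.282 to 0.101. G-CSF array 2 correlated best with PBS array 3 (0.101). These values do not settle whether the arrays are paired. With 1 array left out, the sign of the difference (G-CSF minus PBS, log2) turned in 5 class II genes, whose values ran Cd74 -0.298 to 0.112, H2-Aa -0.698 to 0.106, H2-Ab1 -0.369 to 0.103, H2-Eb1 -0.021 to 0.101 and Ciita -0.066 to 0.067. It also turned in H2-Eb2 -0.039 to 0.218, H2-Ob -0.223 to 0.18, Nfya -0.248 to 0.377, Nfyb -0.471 to 0.211, Nfyc -0.587 to 0.095, Siglech -0.009 to 0.385, Blk -0.297 to 0.024, Igll1 -0.257 to 0.026 and Cd3e -0.022 to 0.243, and among the genes of like pattern in Rsbn1 -0.616 to 0.148, Glb1 -0.749 to 0.055, Rnf125 -0.545 to 0.276, Stx16 -0.611 to 0.216 and Trappc3 -1.1 to 0.186. The value of Nfyb, G-CSF minus PBS, was 0.057 with array weights, and that of H2-Ob, G-CSF minus PBS, was -0.015 with arrays centred on the median. The cause was not tested. With the dimmest 50% left out, 5 class II genes were tested, since Cd74 did not pass that filter. H2-DMa and the shared probeset kept their sign in each alternative run. With 3 arrays per group and no measured background, the intervals of the differences set what could be seen.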
